A study of Drosophila melanogaster with 3 samples.

Results

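The 9 genes CG14100, CG11050, Ugalt, Art3, CG5611, CG11309, CG18549, CenG1A and PNPase lie nearest to 9 of the strongest binding peaks of the homeodomain protein unpg in Drosophila melanogaster embryos. They are 9 of 13945 protein-coding genes on the 6 chromosome arms analysed. They were chosen by the signal score of the nearest peak, column 7 of the final peak list, so their high scores and ranks are a description and support nothing else. Together their peaks are 9 of the 12 highest-scoring peaks of that list. Of the other 3, the peaks of ranks 2 and 6 lie on arm 2R, and the peak of rank 8 lies nearest to cbt.

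The data are chromatin immunoprecipitation with sequencing (ChIP-seq) from whole embryos aged 4 to 16 hours. The flies were a transgenic line stably expressing unpg with green fluorescent protein (GFP) at its C terminus. The chromatin was sonicated to fragments of 200 to 800 bp and precipitated with an antibody that the descriptions give as anti-GFP, whereas the antibody field names unpg. There were 3 biological replicates, numbered 3, 4 and 5, in 1 group that named 1 possible control experiment in common, and no other genotype, age or tissue. A precipitation from untagged embryos was not analysed here, so binding by unpg and enrichment that any precipitation would give cannot be told apart. In whole embryos, the cells in which a peak arose were not resolved, and strong binding in few cells and weak binding in many cannot be told apart.

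The deposited peak lists held 30000 peaks for each replicate, taken at a relaxed threshold, and a final list of peaks kept by the irreproducible discovery rate (IDR), which retains peaks whose ranks agree between replicates. The signal score has no stated unit and its scale differed between lists, with a maximum of 8500 in the IDR list and of 4190, 2432 and 1917 in replicates 3, 4 and 5. Ranks were therefore used across lists, rank 1 being the highest score of a list. The depth of the libraries is unknown from these lists.

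The gene unpg (unplugged) encodes a homeodomain transcription factor of the Gbx family. It acts in the embryonic tracheal system and is expressed in the developing brain and nerve cord. Homeodomain proteins of this type commonly contact short AT-rich DNA words with a TAAT core. Ugalt encodes a UDP-galactose transporter, Art3 an arginine methyltransferase, CenG1A (centaurin gamma 1A) a GTPase-activating protein for Arf GTPases, and PNPase polynucleotide phosphorylase, an enzyme of mitochondrial RNA turnover. CG18549 carries the synonym MFSD11, while RefSeq describes the products of CG14100, CG11050, CG5611 and CG11309 as uncharacterized. The spans of all 9 genes were the same in RefSeq as in the Ensembl annotation.

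The reference sequence at the summits is shown because the 9 peaks share AT-rich centres and several carry the same words. The summit is the base at which the authors' peak caller placed the top of a peak. Each sequence runs 5′ to 3′ along its gene, comes from the RefSeq copy of Release 6 (dm6), and covers up to 100 bp on each side of the IDR summit with annotated UTR bases left out. PNPase has no sequence here because its summit lies in a 5′ UTR. Capitals mark the homeodomain words TAATTA and CAATTA and the words CTACGCC and CATGGGCG, on either strand. CTACGCC and CATGGGCG can overlap on opposite strands, as they do in 3 of the sequences. The windows are chr3L:19590525-19590714 (minus strand) for CG14100, chr2L:6612611-6612811 (plus) for CG11050, chrX:2703853-2703991 (minus) for Ugalt, chr3R:15229435-15229635 (minus) for Art3, chr3R:27636071-27636271 (minus) for CG5611, chr3L:21304468-21304608 (minus) for CG11309, chr3R:12449069-12449269 (plus) for CG18549 and chr2L:13835359-13835559 (plus) for CenG1A. The summit is base 101 of each sequence except that of CG11309, where it is base 43.
CG14100: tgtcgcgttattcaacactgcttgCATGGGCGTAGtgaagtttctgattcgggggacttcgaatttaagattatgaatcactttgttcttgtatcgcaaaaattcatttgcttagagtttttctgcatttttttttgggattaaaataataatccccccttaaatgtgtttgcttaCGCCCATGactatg
CG11050: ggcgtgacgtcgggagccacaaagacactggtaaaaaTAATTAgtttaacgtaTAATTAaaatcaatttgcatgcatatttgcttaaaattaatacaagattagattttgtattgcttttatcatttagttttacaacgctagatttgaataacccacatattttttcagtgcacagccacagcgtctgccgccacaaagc
Ugalt: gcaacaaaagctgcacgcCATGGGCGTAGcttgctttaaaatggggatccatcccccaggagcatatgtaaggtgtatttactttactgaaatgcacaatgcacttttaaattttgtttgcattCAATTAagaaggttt
Art3: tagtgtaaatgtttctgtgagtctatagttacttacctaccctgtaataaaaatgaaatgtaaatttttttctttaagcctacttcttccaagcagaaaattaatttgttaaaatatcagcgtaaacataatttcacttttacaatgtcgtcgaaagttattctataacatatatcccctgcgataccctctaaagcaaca
CG5611: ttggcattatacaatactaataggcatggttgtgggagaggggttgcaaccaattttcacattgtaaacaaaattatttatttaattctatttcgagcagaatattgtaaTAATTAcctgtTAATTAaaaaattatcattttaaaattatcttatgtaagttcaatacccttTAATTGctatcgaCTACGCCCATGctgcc
CG11309: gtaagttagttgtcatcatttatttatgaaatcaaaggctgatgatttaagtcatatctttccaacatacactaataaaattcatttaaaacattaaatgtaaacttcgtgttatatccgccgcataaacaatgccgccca
CG18549: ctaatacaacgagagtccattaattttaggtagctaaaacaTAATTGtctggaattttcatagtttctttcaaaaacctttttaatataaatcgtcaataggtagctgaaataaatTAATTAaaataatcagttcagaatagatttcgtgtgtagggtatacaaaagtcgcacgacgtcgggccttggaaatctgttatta
CenG1A: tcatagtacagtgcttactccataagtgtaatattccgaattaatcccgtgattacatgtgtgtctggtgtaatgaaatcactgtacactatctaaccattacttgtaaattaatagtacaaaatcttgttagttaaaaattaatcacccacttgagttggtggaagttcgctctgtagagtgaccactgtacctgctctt

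TAATTA lay within 50 bp of the summit at 4 of the 9 genes, CG11050, CG5611, CG18549 and PNPase. CG11050 and CG5611 each show it more than once above. The same word lay at 14.8% of the 88 peaks of ranks 13 to 100 and at 11.3% of the 7076 peaks of further ranks. CAATTA lay within 50 bp at Ugalt alone, against 5.68% of ranks 13 to 100 and 11.2% of further ranks. Within 100 bp it was also found at CG5611 and CG18549, 3 of 9, against 14.8% of ranks 13 to 100 and 19.1% of further ranks. The summits of CG14100, Art3, CG11309 and CenG1A had neither homeodomain word within 100 bp. A match describes letters and not a binding site, and the absence of these letters says nothing of the factor.

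The words TATCGATA (the DRE of the factor Dref), GGTCACACT (the Ohler motif bound by M1BP), CATCNCTA, CAGCTG (an E-box) and GAGAG (the core of GAGA factor sites) were found within 50 bp of none of the 9 summits, searching both strands. All 5 were uncommon elsewhere too, at 0.933%, 0.707%, 1.27%, 2.74% and 8.65% of further ranks in that order, so none in 9 is near the background. Within 100 bp GAGAG lay at CG5611 and CG18549, 2 of 9, against 13.6% of ranks 13 to 100 and 21% of further ranks. For the words that follow, the counts are again within 50 bp. The AT-rich words AATATT and ATATTA lay at CG5611 and at CG18549 respectively, against 27.3% and 29.5% of ranks 13 to 100. TTTATG, a word bound by Caudal and by abdominal Hox proteins, lay at Ugalt and CG11309, against 13.6% of ranks 13 to 100. TATAAA, the TATA-box word, lay within 50 bp at CG18549 only, against 34.1% of ranks 13 to 100. A run of 6 A lay at CG14100, Art3 and CG5611, against 31.8% of ranks 13 to 100.

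The letters CATGGGCG were read from the 9 windows after their sequences had been seen, so their count has no test. They lay within 150 bp of the summit at 4 of the 9 genes. In CG14100 they stood on opposite strands, 79 bp to one side of the summit and 73 bp to the other. In Ugalt they stood 79 bp from the summit, in CG5611 91 bp and in CG11309 96 bp, where the UTR limit cuts them from the printed sequence. Windows of the same size held CATGGGCG at 1.74% of the 288 peaks of ranks 13 to 300, at 0.735% of ranks above 100, and at 0.85% of places 1 kb to the side of the IDR summits. Its overlapping partner CTACGCC lay at CG14100, Ugalt and CG5611, 69, 75 and 88 bp from their summits, against 8.33% of ranks 13 to 300, 1.63% of ranks above 100 and 1.70% of places 1 kb away. Chance was not assessed for either word.

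CTACGCC was 1 of 5 words of 7 bases picked as most frequent around ranks 13 to 300 relative to the places 1 kb away, without the 9 peaks. The other 4 overlap one another. The most frequent, ACAGTGG, lay at 24.0% of ranks 13 to 300 and at 3.94% of the places 1 kb away, and among the 9 genes at CG5611 (109 bp from the summit) and CenG1A (87 bp). CACTGTA, at 13.5% and 3.44% of the same places, lay in CenG1A 3 times, 18, 88 and 91 bp from the summit. CACAGTG, at 20.8% and 3.66%, lay among the 9 at Ugalt only, 137 bp from the summit. ACTGTGC, at 17% and 3.48%, lay at none of the 9. Any of the 5 words lay at 4 of the 9 genes (44.4%), at 42.7% of ranks 13 to 300 and at 23.1% of ranks above 100. The words were picked in ranks 13 to 300, which favours their share there, and ranks above 100 overlap that set.

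The bases under the 9 summits were richer in A and T than those 101 to 150 bp away, here called the border although they lie inside the peak. GC content within 50 bp of the summit ranged from 16.8% at CG5611 to 33.7% at Ugalt and PNPase, with a median of 24.8%. At 101 to 150 bp on either side it ranged from 34% at Art3 to 55% at CG11050, with a median of 47%. GC content was higher at the borders than at the summit in 9 of the 9 peaks. The excess was 33.2 percentage points at CG11050, 30.2 at CG5611 and 28.2 at CG18549, and 9.25 at Art3 and 9.29 at CG14100. The peaks of ranks 13 to 100 had the same form, with a median of 26.2% at the summit and 45% at the border and a higher border in 87 of 88. Further ranks had 30.7% and 42%, with a higher border in 79.7%. Along the direction of the nearest gene, the lowest mean of the 9 was 21.8%, in the bin 37.5 bp beyond the summit, and the highest was 56%, in the bin 87.5 bp beyond it.

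**Figure D1:**
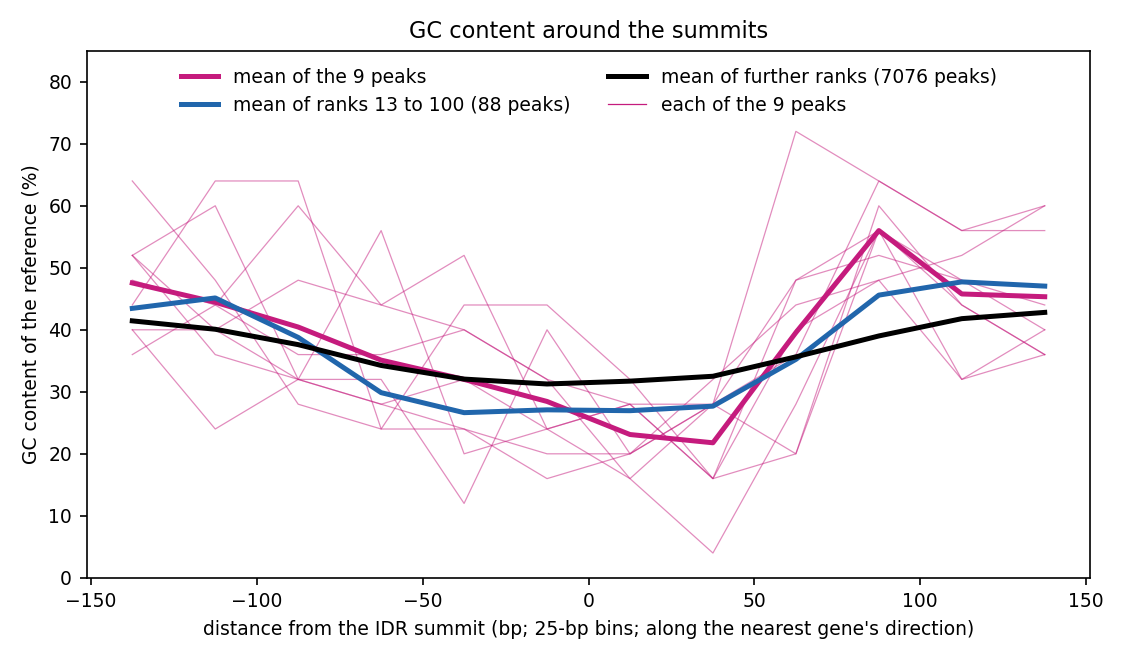
GC content of the reference in 25-bp bins (vertical axis, %) against distance from the IDR summit (horizontal axis, bp, along the direction of the nearest gene). Thin lines are the 9 peaks, and thick lines are the means of the 9 peaks, of ranks 13 to 100 and of further ranks. The mean of the 9 peaks is 21.8% at its lowest and 56% at its highest, and the means of the other sets dip at the summit too.

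CG14100 had the strongest peak of all. Its IDR peak, chr3L:19590407-19590831, was 425 bp wide with a score of 8500. It ranked 1 in replicates 3, 4 and 5, with scores of 4190, 2432 and 1917, or 130, 86.6 and 73.6 times the median score of its list. No other of the 9 peaks held 1 rank in every list. The summits lay 92, 86 and 90 bp before the only start of the gene in replicates 3, 4 and 5, a mean of 89.3 ± 3.06 bp (SD, n = 3). The summit was intergenic.

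CG11050 was the exception in position. Its peak (chr2L:6612408-6612975, rank 3 with a score of 7065, ranks 4, 2 and 2 in replicates 3, 4 and 5) lay in an intron, 1024 bp downstream of the nearest annotated start of the gene and 1700 bp downstream of its outermost 5′ end. The replicate summits lay 1021, 1024 and 1012 bp downstream, 1019 ± 6.25 bp (SD, n = 3). The gene had a second, much weaker IDR summit of rank 1165 at its promoter, 218 bp before the outermost 5′ end. Another, of rank 4388, lay in an intron, 800 bp beyond that end and 124 bp beyond an inner annotated start. At 568 bp the IDR peak was wider than the replicate peaks, which measured 381, 458 and 501 bp, 447 ± 60.8 bp (SD, n = 3).

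Ugalt, whose product carries UDP-galactose into the Golgi, had its peak (chrX:2703673-2704102, 430 bp, score 6666, rank 4) closest to its start. The IDR summit lay 39 bp before the start, and the replicate summits lay 41, 41 and 46 bp before it. It ranked 3, 3 and 5 in replicates 3, 4 and 5. The summit positions spanned 5 bp, the least of the 9. A separate weak peak stood 49 bp before the start of eIF2Bbeta, the divergent neighbour, at ranks 8517, 29247 and 10588 in the 3 replicates and without an IDR peak.

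Art3 and its neighbour mRpS10, which encodes a protein of the small subunit of the mitochondrial ribosome, shared a peak. Their starts are 257 bp apart, and the IDR summit lay 127 bp before the start of Art3 and 130 bp before that of mRpS10, so the assignment to Art3 rests on a difference of a few bases. The replicate summits lay 127, 133 and 135 bp before the start of Art3, so in replicates 4 and 5 mRpS10 had the nearer start. The peak (chr3R:15229332-15229729, 398 bp, score 6165) ranked 5 in the IDR list and 5, 6 and 11 in replicates 3, 4 and 5.

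CG5611 had the widest IDR peak, 619 bp (chr3R:27635956-27636574, score 5887, rank 7), although its replicate peaks measured 365, 370 and 357 bp, 364 ± 6.56 bp (SD, n = 3). The IDR interval reaches over the nearest start of Mtl, which runs in the other direction. The summits lay 102, 96 and 109 bp before the start of CG5611 in replicates 3, 4 and 5. It ranked 6, 14 and 6, the lowest place being that of replicate 4.

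CG11309 had the least even ranks, 17, 12 and 4 in replicates 3, 4 and 5, for rank 9 in the IDR list (chr3L:21304352-21304793, 442 bp, score 5485). This spread of 13 places was the widest of the 9. The summit lay within the gene, 92 bp beyond one annotated start and 99 bp before another, and it fell in an intron. Replicate summits stood 92, 86 and 94 bp beyond the first of these starts, 90.7 ± 4.16 bp (SD, n = 3).

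CG18549, CenG1A and PNPase closed the list with nearly equal scores. CG18549 (chr3R:12448983-12449367, 385 bp, score 5448, rank 10) ranked 15, 7 and 8 in replicates 3, 4 and 5, and its summits lay 132, 126 and 128 bp before its start. CenG1A (chr2L:13835267-13835676, 410 bp, score 5435, rank 11) ranked 13, 8 and 10, and its summits lay 105, 115 and 99 bp before its start. Its summits spanned 16 bp, the most of the 9. PNPase (chr3R:31404464-31404848, 385 bp, score 5423, rank 12) ranked 11, 9 and 13, and its summits lay 76, 69 and 68 bp beyond an inner start, in an annotated 5′ UTR.

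**Figure D2:**
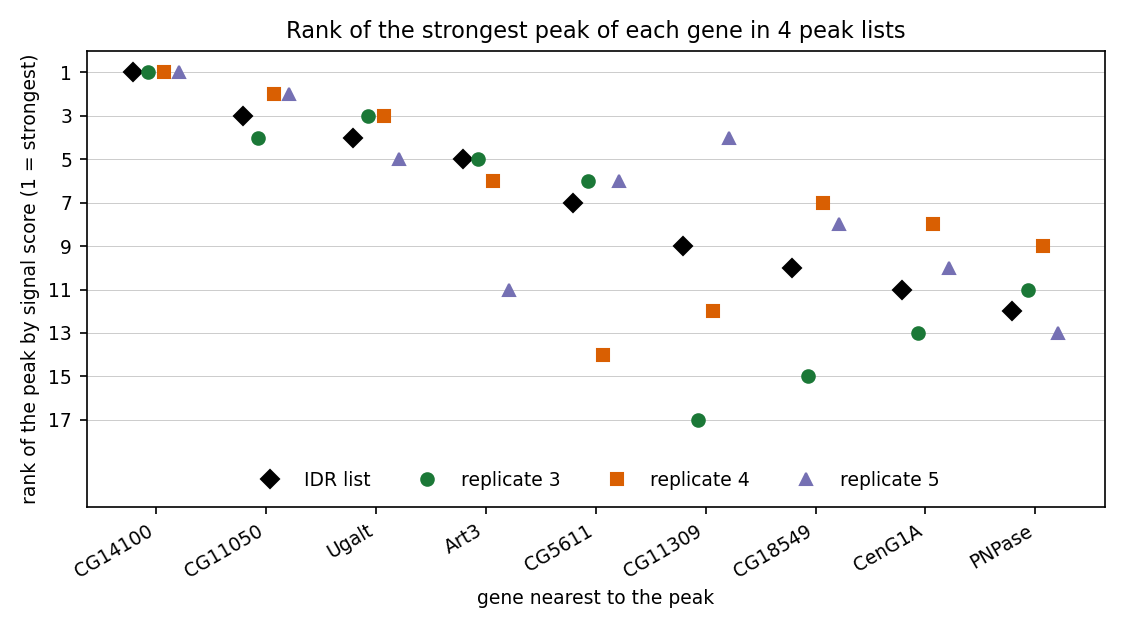
Rank by signal score (vertical axis, 1 at the top) of the peak nearest to each of the 9 genes (horizontal axis). Diamonds give the IDR list, circles, squares and triangles replicates 3, 4 and 5. CG14100 is at rank 1 in all 4 lists, and the lowest place of any of the 9 is rank 17, for CG11309 in replicate 3.

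All 9 peaks were among the top 50 of every replicate, which held for 38 of all IDR peaks (0.53%). Because the replicate lists were the input of the IDR list, the ranks in replicates are no independent check of the choice. The summits of a peak in the 3 replicates spanned a median of 8 bp over the 9 genes, 12 bp over ranks 13 to 100 and 40 bp over the 6940 further peaks matched in all replicates. The largest span of the 9 was 16 bp, and that of ranks 13 to 100 was 34 bp. IDR peak widths had a median of 425 bp for the 9, 412 bp for ranks 13 to 100 and 260 bp for further ranks. The widths of the matched replicate peaks differed less between these sets. In the same order, their medians were 347, 333.5 and 280 bp in replicate 3. They were 376, 368 and 356 bp in replicate 4, and 364, 345 and 350 bp in replicate 5. Both measures, span and width, come from the same reads as the score that chose the genes, and no test was made.

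The limit of the choice was narrow. PNPase, the last gene inside, had a score of 5423, and Tcs5, the first outside, had 5419 with ranks 7, 16 and 22 in replicates 3, 4 and 5. Leaving out arm 2R, next outside stood ph-p, Lk6 and CG32772 at ranks 16, 17 and 18. The genes whose ranks over the 4 lists were most like those of the 9 were cbt, Tcs5 and ph-p, which differed from the medians of the 9 by means of 0.153, 0.315 and 0.358 on the log10 rank scale. The summit at cbt lay 1408 bp before a start, farther than at any of the 9, and that at Tcs5 108 bp before.

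With CG11050 counted through its summits of ranks 1165 and 4388, all 9 genes had an IDR summit within 500 bp of an annotated start. Among all protein-coding genes 22.8% had one. The choice of the nearest gene favours this count, so nothing is read from it. Of the strongest peaks of the 9 genes, 8 (88.9%) lay within 500 bp of a coding start. The counts were 59 of 88 (67.0%) for ranks 13 to 100 and 2567 of 7076 (36.3%) for further ranks. The 9 leave out the peaks of ranks 2, 6 and 8, so they are not a complete run of ranks as the other sets are. At 6 genes the summit was upstream of the nearest start, by 39 to 127 bp, and at CG11050, CG11309 and PNPase it was downstream.

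Divergent neighbours, meaning a protein-coding gene on the other strand whose start lies upstream within 1 kb, were found for 6 of the 9 genes. The share was 36.2% among all protein-coding genes, and 58.5% among other genes with an IDR summit within 500 bp of a start, so 6 of 9 is near the background of promoters with a peak. CG14100, CG11050 and CG18549 had none. In Ugalt and eIF2Bbeta, a subunit gene of the exchange factor for the initiation factor eIF2, the starts are 719 bp apart and the summit lay 39 bp from Ugalt and 680 bp from eIF2Bbeta. In CG5611 and Mtl, 352 bp apart, it lay 111 bp from CG5611 and 241 bp from Mtl. In CenG1A and mRpS23, which also encodes a mitochondrial ribosomal protein of the small subunit, the starts are 492 bp apart and the summit lay 105 bp from CenG1A and 387 bp from mRpS23. With Art3 and mRpS10 these make 4 pairs with the summit between the starts, and in all 4 it was nearer to the named gene, as the choice by nearest gene requires.

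In the other 2 pairs the summit was not between the starts. CG11309 and CG7632 start 39 bp apart, and the summit lay 92 bp inside CG11309 and 131 bp from CG7632. PNPase and Gprk2, a G protein-coupled receptor kinase gene, are 505 bp apart when counted from an inner start of PNPase. From the outermost 5′ end of PNPase the pair overlap, and 5 of the 9 genes then have a divergent neighbour.

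**Figure D3:**
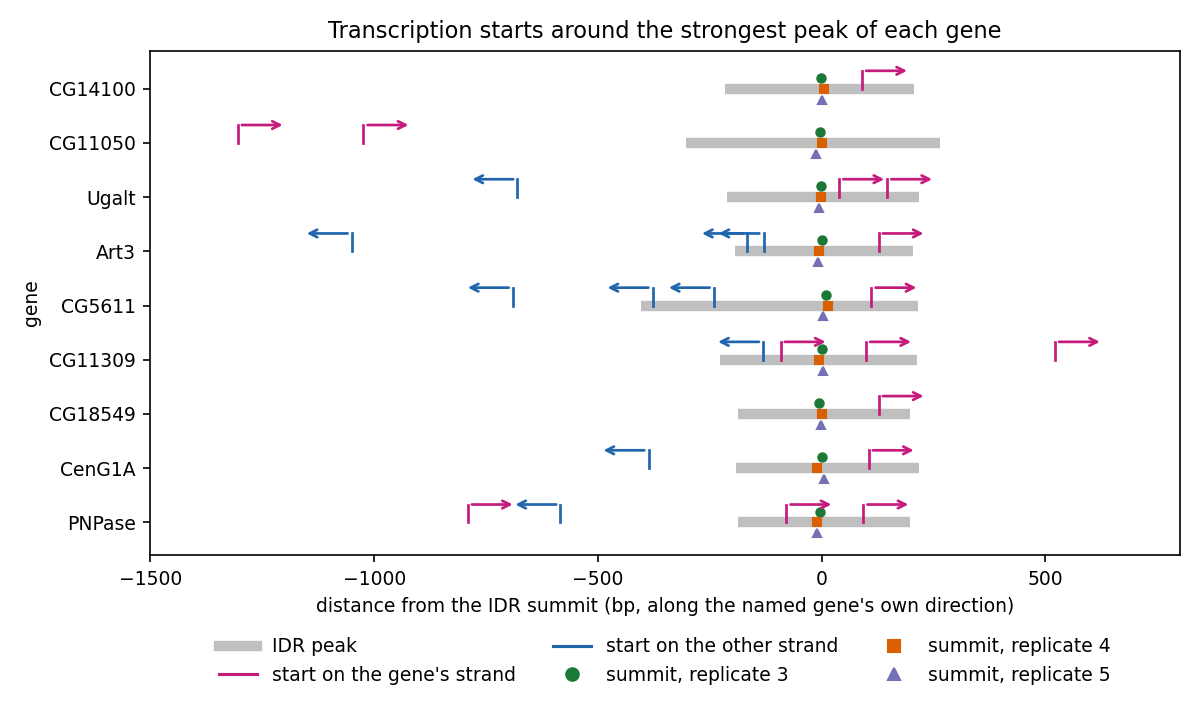
Annotated starts of protein-coding transcripts around the strongest peak of each of the 9 genes, with distance from the IDR summit along the gene's own direction on the horizontal axis (bp) and the genes on the vertical axis. Grey bars are IDR peaks, arrows are starts on the gene's strand (magenta) or on the other strand (blue), and symbols are the summits in replicates 3, 4 and 5. The replicate summits sit within 16 bp of each other in every gene, and CG11050 is the only one whose own starts all lie over 1000 bp away.

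Around the 9 genes, 25 IDR summits lay within 20 kb of the outermost 5′ ends, between 1 and 5 per gene with a median of 3. All protein-coding genes had a median of 2 and a mean of 2.86. Of the other 16 summits, 12 lay within 500 bp of a coding start, against 36.3% of further ranks. Windows centred on gene starts favour that count, so nothing is read from it. The 16 had ranks of 663 to 7033 with a median of 3401.5. Thus no gene of the 9 had a second peak of comparable strength nearby. Among ranks 13 to 100, the best rank of another IDR summit within 20 kb was 16, and the median was 987, against 2413 for the 7 of the 9 that had one.

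The strongest of these 16 lay inside CenG1A, a gene of 63149 bp. It lay 4369 bp beyond the start of CenG1A, in a 3′ UTR and nearest to the start of CG33307, at rank 663 in the IDR list and ranks 911, 578 and 511 in replicates 3, 4 and 5, where it reached 15.2%, 18.9% and 21.7% of the score of the CenG1A peak. A further summit inside CenG1A, 8476 bp beyond its start and 298 bp before CG33306, ranked 6464. Near CG11050, besides the summits within the locus, the promoter of Dpp10 had a summit of rank 888, at ranks 889, 922 and 995 in the replicates.

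CG18549 had the most, 5, of which 3 others were at Srlp (rank 2992) and Desat1 (ranks 4696 and 6047). The last, of rank 3418, lay in an intron inside the span of CG18549, 2260 bp beyond its start. The start nearest to it was that of CG5509, 908 bp farther on. Desat1 encodes a fatty acid desaturase. Near CG11309 a summit at CG12974 ranked 1858 and another in the same 466-bp interval, nearest to pzg, ranked 7033. Near Art3 the promoters of CG12241 and Hsc70-4, a constitutive Hsp70-type chaperone gene, had ranks 2413 and 2682. Near CG14100 a summit in an intron of Shal, a potassium channel gene, ranked 3385 and one at CG9330 ranked 6122. Near Ugalt a single summit at CG2681 ranked 6999. CG5611 and PNPase had no other IDR summit within 20 kb.

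In the replicate lists, which reach weaker peaks, 89, 83 and 92 summits lay in the 9 windows in replicates 3, 4 and 5, or 88.0 ± 4.58 (SD, n = 3). Each gene had between 4 and 17 in a replicate. The median per gene was 10 in each replicate, against 9, 10 and 10 over all protein-coding genes. Summits of any list linked at 250 bp or less made 122 loci. Of these, 50 were found in all 3 replicates, 20 in 2 and 52 in 1.

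Of the 50 recurring loci, 26 had no IDR summit. They included a place 354 bp before an inner start of Rab26, a small GTPase gene near CG11309, in an intron (ranks 6144, 5704 and 5052), the promoter of Caf1-55, a histone-binding protein gene near Art3 (ranks 6248, 10326 and 6817), that of Pc, the Polycomb gene near CG11309 (ranks 12392, 10292 and 8859), and that of per, the clock gene period near Ugalt (ranks 14745, 8617 and 16737). These are named as examples after their values were seen. At the Caf1-55 locus, the replicate 5 summit of rank 6817 was nearest to CG31344, 88 bp before its start. The replicate 5 summit nearest to Caf1-55 ranked 11266. Near CG5611 the 2 recurring loci without an IDR summit lay in introns of Tusp and tau. Near PNPase 6 loci recurred, and 1 of them lay around the start of Gprk2 (ranks 23531, 11906 and 6657). Its summit lay 8 bp beyond that start in replicate 3 and 16 bp before it in replicate 5. In replicate 4 the summit was nearer to the outermost start of PNPase, 71 bp beyond it, in a 5′ UTR. The next-strongest peak in the PNPase window was a different one between replicates. It was an intronic peak of rank 9198 in replicate 3, with 2.18% of the score of the PNPase peak. In replicates 4 and 5 it was the peak of the locus around the start of Gprk2, with 2.05% and 4.24%.

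**Figure D4:**
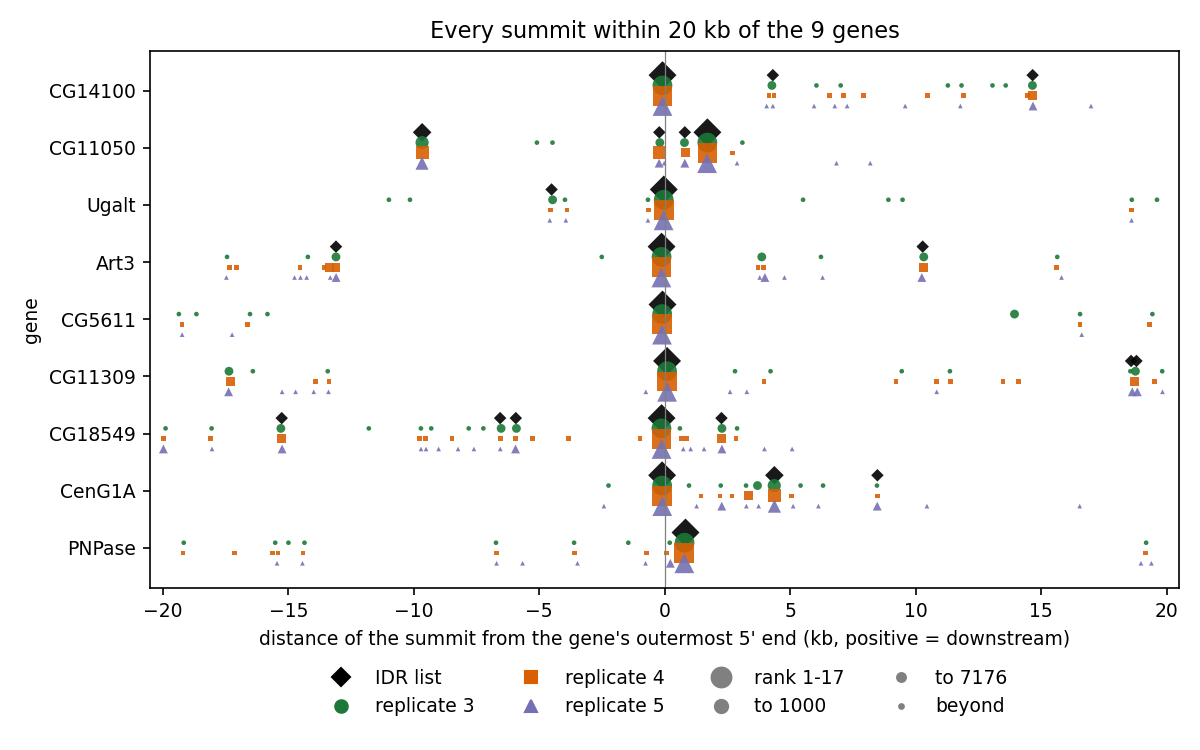
Every summit of the 4 lists within 20 kb of the 9 genes, with distance from the outermost 5′ end on the horizontal axis (kb, positive is downstream) and the genes on the vertical axis. Diamonds are the IDR list, and circles, squares and triangles are replicates 3, 4 and 5, with larger symbols for better ranks. Each gene has 1 column of large symbols, all others within 20 kb being of rank 511 or worse.

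Genes of the same family were looked up for Art3, Ugalt and CenG1A, and genes of related processes for PNPase. These lists were made with earlier results known. Of 9 arginine methyltransferase genes, Art3 (rank 5) and Art8 (rank 1746) had an IDR summit within 500 bp of a start, 2 of 9. Of 8 matched nucleotide sugar transporter genes 4 had one, namely Ugalt (rank 4), senju (rank 1438), meigo (rank 2583) and Efr (rank 6899). Of 7 Arf GTPase-activating protein genes CenG1A (rank 11) and ArfGAP3 (rank 2292) had one, 2 of 7. Of 13 genes of mitochondrial transcription and RNA turnover 6 had one, namely PNPase (rank 12), SLIRP2 (rank 58), SLIRP1 (rank 818), mTerf5 (rank 2195), Suv3 (rank 5900) and mTerf3 (rank 6873). The share among all protein-coding genes was 22.8%, and each list includes 1 gene chosen for its peak, so nothing is read from these counts. No other gene of these lists reached the ranks of the 9, and SLIRP2 was the only other one among the top 100.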

How the data were processed

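The 3 ChIP-seq replicates of 1 group were used. The authors deposited peak lists on dm6, per the file descriptions: 30000 relaxed peaks for each replicate and 7176 IDR peaks over the replicates. The deposited columns are positions and a signal score of unstated unit. The peak caller's version is not given in the sources used here. Depth is unknown, and no column lacked a sample. A summit is column 2 plus column 10, written 1-based. Peaks were matched by an overlap of 1 bp, starts came from Ensembl release 115 and sequences from RefSeq Release 6. Scripts ran in Python 3.11.15 with numpy 2.4.6, pandas 2.3.3 and matplotlib 3.10.9 and were tested on simulated data. The members, lists, words and naming rule (the 9 genes, the next 6 genes in rank, the nearest gene of each summit) were chosen with earlier results of these data known. Members were chosen by score, so no test was made. Alternatives were promoter size, window size, matching rule, start choice, the strongest 3588 IDR peaks and leaving out each replicate.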

Additional observations from a re-analysis of the deposited data

How the results depend on the processing

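The counts of promoters with a summit, of divergent neighbours, of IDR summits within 20 kb and of genes ranked in the top 50 stayed within 1.5 times their value under every alternative run. Divergent neighbours were 4 of 9 within 500 bp, and 5 of 9 with outermost 5′ ends only, a setting added after the data were seen. With as many of the strongest replicate peaks as the IDR list holds, 25.3 replicate summits lay in the 20 kb windows, against 88.0, because fewer peaks entered. The median summit span of 8 bp was 5 to 6 bp when each replicate was left out, because fewer samples entered. Median summit GC content of 24.8% was 25.5% within 25 bp and 34.8% within 100 bp, where the window takes in the bases up to the borders. No paired analysis was possible because there is 1 group. The precision is limited by 3 replicates and by lists without read counts.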
